A study of Homo sapiens with 23 samples.

Results

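The genes described here are 44 genes of DNA replication and of nucleotide supply, given as a list of symbols and matched to Ensembl identifiers in the RNAseq count files of 15 libraries. All 44 were found among the 57875 genes listed, and all 44 passed the filter on low counts that left 22842 genes for testing. The list is one of symbols and holds no measured value, but it was chosen with earlier results of these data known. RNA came from HCT116, an established line of human colorectal carcinoma cells, and from 4 lines in which *AGO1*, *AGO2*, *AGO1* and *AGO2* (*AGO1/2*), or these 2 and *AGO3* (*AGO1/2/3*) had been knocked out by CRISPR, with 3 replicates of each line and of wild-type cells. *AGO4* was not edited in any line, the cells were used between passages 12 and 18, and the labels name no treatment. A single line stands for each genotype, so the effect of a genotype and that of the line chosen cannot be told apart. The 8 eCLIP samples of the series were not analysed here.

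A cell copies its genome once per division. Origins are marked by the origin recognition complex and by CDC6 and CDT1, which load the ring-shaped MCM helicase onto DNA in G1 phase. In S phase CDC45 and the GINS complex join the MCM ring to form the active helicase, polymerases copy the strands behind it, the sliding clamp PCNA is placed on DNA by the RFC clamp loader, and RPA covers single-stranded DNA. Ribonucleotide reductase, thymidylate synthase and thymidine kinase supply the deoxynucleotides. Many of these genes are transcribed late in G1 under the E2F transcription factors, so that their RNA is abundant in dividing cells and low in resting cells. Argonaute proteins, the products of the AGO genes, carry miRNAs to messenger RNAs.

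Shown first are promoter sequences, since E2F sites are the best known feature that replication genes have in common. RefSeq promoters (GRCh38.p14, 250 bases before to 50 after the gene start) were found for 38 of the 44 genes and not for *MCM4*, *MCM5*, *GINS4*, *POLD3*, *RPA2* and *RPA3*. The RefSeq start can differ from the GENCODE start in the gene positions given below. For *GINS1* the window shown lies well inside the GENCODE gene. An E2F site, taken as TTTCCCGC, TTTCGCGC, TTTGCCGC or TTTGGCGC on either strand, was present in 19 of the 38 (50.0%), against 3.33% of all 27305 promoters and 4.96% of the 13295 promoters of genes tested. The CCAAT box, searched as CCAAT on both strands, was present in 22 of the 38 (57.9%), against 35.7% of all promoters. These are matches of letters and not mapped sites. Capitals mark the match in the lines that follow, each 30 bases long and written 5′ to 3′ on the strand of the gene. They come from genes whose levels are described in detail here.
E2F1, chr20:33686387-33686416, minus strand: ggcaaaaaggaTTTGGCGCgtaaaagtggc
GINS1, chr20:25407667-25407696, plus strand: agctttgttcgGCGCCAAAgcgcggagcgg
MCM2, chr3:127598402-127598431, plus strand: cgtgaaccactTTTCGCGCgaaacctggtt
MCM6, chr2:135876515-135876544, minus strand: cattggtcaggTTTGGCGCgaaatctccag
MCM7, chr7:100101388-100101417, minus strand: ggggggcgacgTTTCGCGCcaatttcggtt
RFC3, chr13:33818083-33818112, plus strand: atttggagctcGCGGGAAAacttgtctctg
PCNA, chr20:5126663-5126692, minus strand: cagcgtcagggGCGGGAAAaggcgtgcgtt
CDC6, chr17:40287875-40287904, plus strand: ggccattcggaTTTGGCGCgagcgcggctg
The window of *MCM6* also holds ATTGG, the reverse complement of the CCAAT box, and that of *MCM7* holds CCAAT, which shares 1 base with the E2F site.

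The list also meets the miRNA pathway in its own sequence. The gene *MCM7* (chr7:100092233-100101940, minus strand) contains miR-106b, miR-93 and miR-25 on its own strand. The mature sequences, from RefSeq, are shown with the seed (bases 2 to 8) in capitals, and miR-17 and miR-20a from chromosome 13 are added because they share the seed of miR-106b and miR-93.
hsa-miR-106b-5p: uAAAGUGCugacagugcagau
hsa-miR-93-5p: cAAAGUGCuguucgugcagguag
hsa-miR-17-5p: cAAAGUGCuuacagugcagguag
hsa-miR-20a-5p: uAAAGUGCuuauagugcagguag
hsa-miR-25-3p: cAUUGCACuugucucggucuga
The match to the shared seed, GCACTTT, was found in the 3′-UTRs of 13 of the 44 genes (29.5%) and in 21.1% of 19550 genes, with a median 3′-UTR length of 872 bases for the 44 and 1064 for all. The match to the miR-25 seed, GTGCAAT, was found in 2 of the 44 (4.5%), *CDC6* and *MCM6*, and in 11% of all. *E2F1* held 2 matches of the shared seed and *E2F2* held 3. Both matches of *E2F1* (capitals) are shown because *E2F1* is among the genes with the clearest difference in *AGO1/2/3* knockout cells.
E2F1 3′-UTR position 387, chr20:33676333-33676357, minus strand: ggggctctaactGCACTTTcggccc
E2F1 3′-UTR position 980, chr20:33675740-33675764, minus strand: accctccaatctGCACTTTgatttg
Whether Argonaute bound any of these matches was not analysed here.

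Total counts per library were 27709971 to 40567975 in wild-type, *AGO1*, *AGO1/2* knockout and the *AGO1/2/3* knockout cells and 40419152 to 45271146 in *AGO2* knockout cells. The headers of the *AGO2* knockout files also name another quantification mode, so that its effect and that of the genotype cannot be told apart. *AGO1* RNA was lower in its knockouts (log2 fold change of -1.89 in *AGO1*, -1.84 in *AGO1/2* and -2.01 in *AGO1/2/3* knockout cells), and *AGO3* RNA was lower in *AGO1/2/3* knockout cells (-1.12). *AGO2* RNA was lower in *AGO2* knockout cells (-0.51, edgeR adjusted p = 0.00518) but higher in the cells labelled *AGO1/2/3* knockout (0.40, edgeR adjusted p = 0.00477). In the cells labelled *AGO1/2* knockout it was not called (-0.26, edgeR adjusted p = 0.0924). A frameshift leaves RNA that can still be counted, so the RNA level of *AGO2* does not check these labels, and the lines are named here as labelled. With levels in CPM (the count of a gene scaled to a common library size), the 7 markers of colorectal epithelium summed to 1325 to 2637 in every library, and those of fibroblasts (11.7 to 31) and blood cells (0.833 to 1.96) were low throughout. The sums hide differences of single markers. Log2 fold changes of the 6 epithelial markers tested ran from -3.51 to 0.41 in *AGO1/2/3* and from -1.66 to 0.76 in *AGO1/2* knockout cells. They ran from -1.15 to 0.22 in *AGO1* and from -0.55 to 0.32 in *AGO2* knockout cells. Fibroblast markers ran from -0.36 to 3.1 in *AGO1/2/3* knockout cells.

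Wild-type replicate 2 stood apart from the other wild-type libraries, and in these genes more than in most. Each of the 44 genes had its lowest wild-type level there, whereas 44.3% of genes averaging 1 CPM or more did. Its difference from the mean of replicates 1 and 3 had a median of -1.45 on the log2 scale (a ratio of 0.366), with single genes between -2.08 and -0.35. At least a 2-fold shortfall was seen for 35 of the 44 genes (79.5%) and for 3.84% of all genes tested, whose median difference was 0.00. *ORC1*, the largest subunit of the origin recognition complex, had a log2 difference of -2.08, *MCM4* of -1.98, and *TK1*, the thymidine kinase of S phase, of -1.97. *CDC6* (-0.35), *POLD2* (-0.40), *ORC6* (-0.42) and *RFC1* (-0.47) differed least. By role, the median difference was -1.71 for nucleotide supply, -1.57 for the MCM helicase, -1.52 for its partners and loading factors and -0.98 for RPA. Total counts (29140175) and the mitochondrial share of counts (8.33%) of this library lay within the range of the other libraries. In RNA of whole cultures, fewer cells in S phase and less of these RNAs per cell cannot be told apart. The counts and medians of each comparison with wild-type cells are therefore also given without this library, as are the values of called genes. For genes that were not called, values are from all libraries unless stated.

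**Figure D1:**
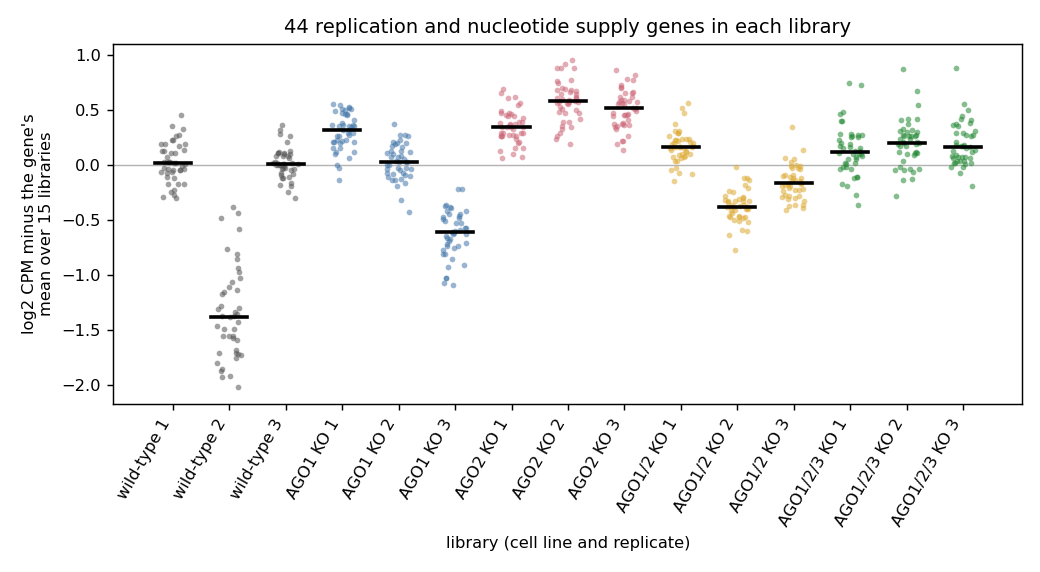
Level of the 44 genes in each of the 15 libraries, as log2 CPM minus the mean of the gene over all libraries. Points are genes and black bars are medians. Wild-type replicate 2 has a median of -1.38 and *AGO1* knockout replicate 3 of -0.61, while the *AGO2* knockout libraries lie at 0.34, 0.58 and 0.52.

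The same genes were low in a library of *AGO1* knockout cells. All 44 were lowest in replicate 3 of that line, with a median log2 difference of -0.80 from replicates 1 and 2 (range -1.25 to -0.28), where all genes tested had a median of 0.03. In *AGO1/2* knockout cells 42 of the 44 were lowest in replicate 2, by a median of -0.37 for the 44. *MCM4* (-1.98 and -1.25) and *GINS2* (-1.85 and -1.23) were far below the other replicates in both wild-type replicate 2 and *AGO1* knockout replicate 3, and *ORC6* and *POLD2* were little below them in both. Across the 44 genes the differences of these 2 libraries had a Pearson r of 0.62 and a Spearman rho of 0.64. Over 16083 genes averaging 1 CPM or more r was 0.49. These are correlations across genes of 2 libraries, and genes are not independent replicates. Some genes differed between the 2 libraries. *E2F1* had -1.61 in wild-type replicate 2 and -0.28 in *AGO1* knockout replicate 3, and *CDT1* had -1.75 and -0.46. *CDC6* (-0.35 and -0.68) and *RPA2* (-0.58 and -0.76) were further below the other replicates in the *AGO1* knockout library. What distinguished these cultures or libraries was not tested.

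**Figure D2:**
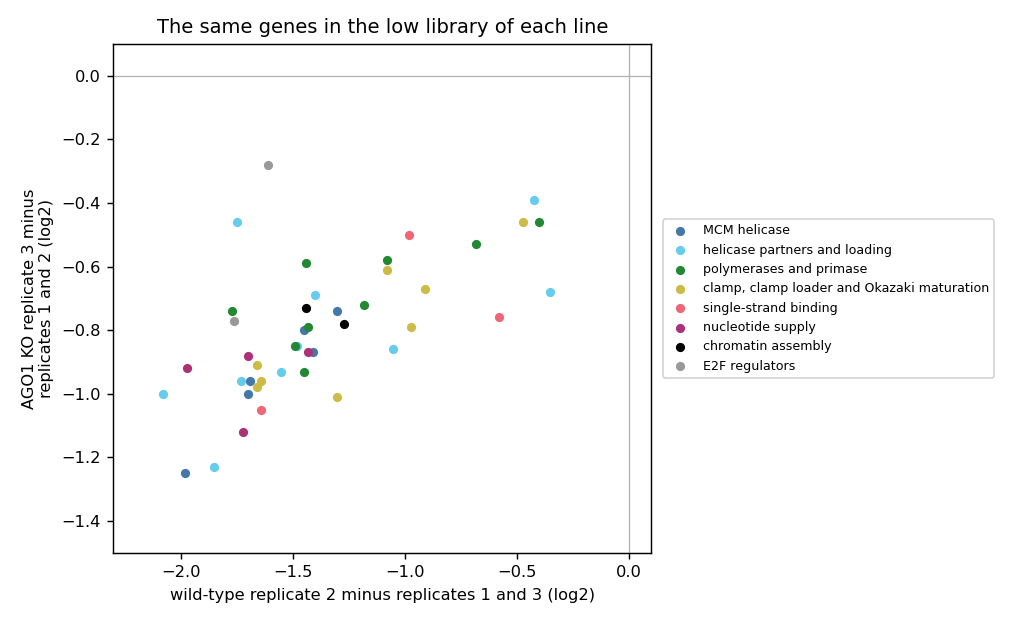
Difference of wild-type replicate 2 from wild-type replicates 1 and 3 (horizontal axis) and of *AGO1* knockout replicate 3 from replicates 1 and 2 of its line (vertical axis), both in log2 CPM, with 1 point per gene coloured by role. All 44 genes lie below 0 on both axes, and Pearson r is 0.62.

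The spread of these genes between replicates was wide in some lines and narrow in others. Their median standard deviation (SD) over 3 replicates, in log2 CPM, was 0.838 in wild-type, 0.48 in *AGO1* knockout and 0.277 in *AGO1/2* knockout cells. It was 0.127 in *AGO2* knockout cells and 0.079 in *AGO1/2/3* knockout cells. Genes averaging 1 CPM or more had medians between 0.112 and 0.203 in the 5 lines. In the *AGO2* knockout line the median of the replication genes was thus close to that of genes averaging 1 CPM or more (0.127 and 0.132). It was below it in the *AGO1/2/3* knockout line (0.079 and 0.112) and above it in the other 3 lines. The 2 sets of genes were not matched for level.

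**Figure D3:**
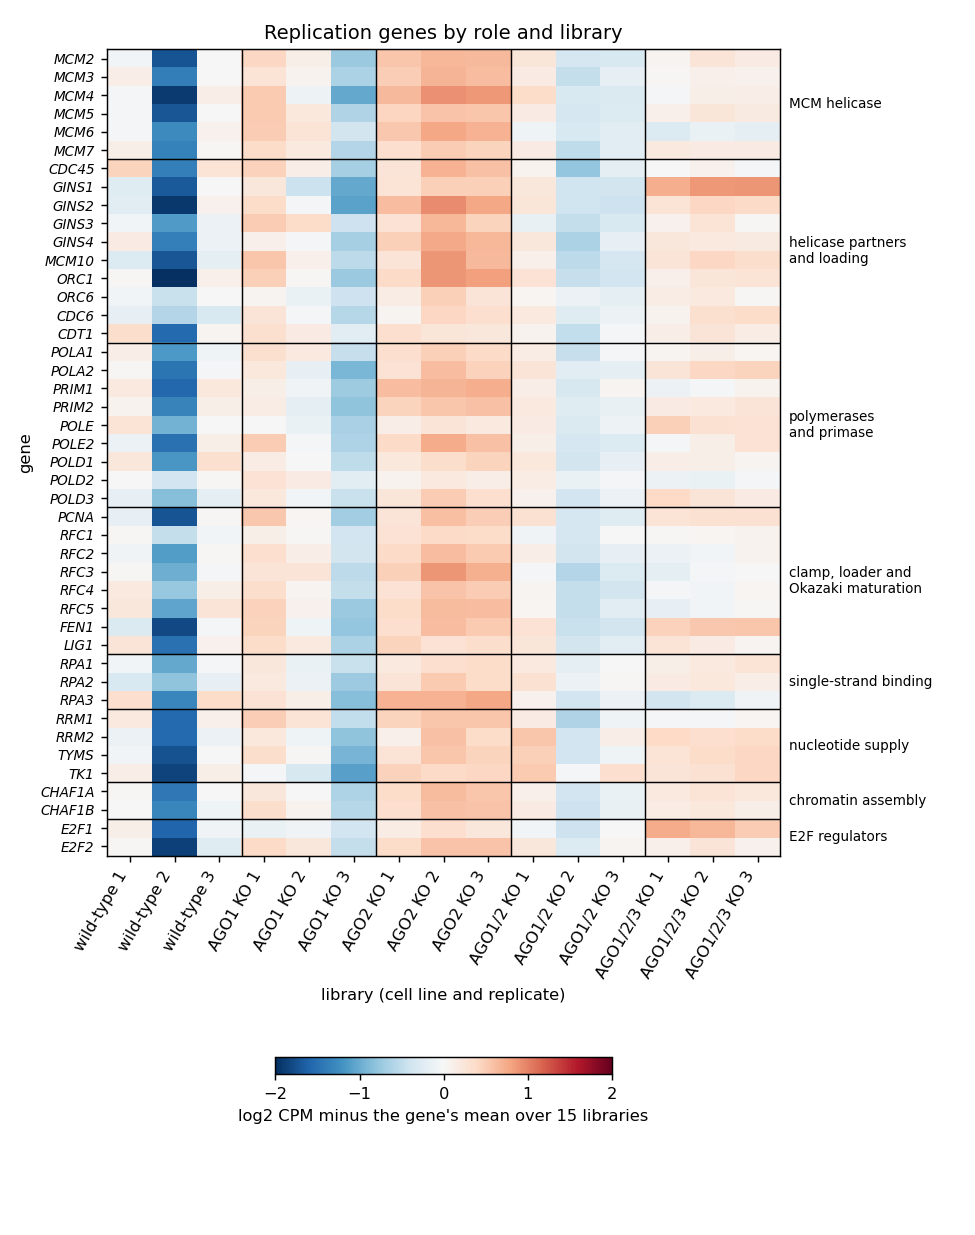
Log2 CPM of each gene minus its mean over the 15 libraries, with genes ordered by role (rows) and libraries by line (columns). Blue is below and red above the mean. The columns of wild-type replicate 2, *AGO1* knockout replicate 3 and *AGO1/2* knockout replicate 2 are blue over nearly all rows, the *AGO2* knockout columns are red, and *GINS1*, *FEN1* and *E2F1* are the reddest rows in *AGO1/2/3* knockout cells.

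*AGO2* knockout cells had the highest mean level of 40 of the 44 genes, where 24.5% of genes with at least 1 CPM were highest in this line. The other 4, *GINS1*, *POLE*, *FEN1* and *E2F1*, were highest in *AGO1/2/3* knockout cells. All 3 *AGO2* knockout libraries lay above all 3 wild-type libraries for 40 genes, against 18.5% of all genes tested. With all 15 libraries, 16 of the 44 genes rose in *AGO2* knockout cells and 0 fell by edgeR's quasi-likelihood test (adjusted p at or under 0.05), while 8.55% of all genes tested rose and 10.8% fell. The median log2 fold change of the 44 was 0.81, with single values from 0.23 to 1.26, and that of all genes was -0.02. Leaving out wild-type replicate 2 lowered the median to 0.47 and left 1 called gene, *MCM6*, with 2.11% of all genes higher and 5.9% lower. Leaving out *AGO1* knockout replicate 3 as well gave a median of 0.48 and 20 called genes, with 4.5% of all genes higher and 7.5% lower. Both libraries were picked because all 44 genes were lowest in them, so this choice used the values of these genes. Calls from that fit, here and below, are therefore a description and no separate support. Of the 16 genes called with all libraries, 14 were among these 20, and *GINS4* and *ORC6* were not. The direction was thus the same for all 44 genes with and without the low wild-type library, whereas the number called was 16, 1 or 20. Leaving out *AGO2* knockout replicate 2 or replicate 3 alone left 0 called genes, leaving out replicate 1 left 9, and leaving out *AGO1* knockout replicate 3 alone gave 27. Of all genes tested, 389 of 23497, 506 of 23489, 1401 of 23481 and 2612 of 23481 rose, in the same order. The medians of the 44 were 0.73, 0.79, 0.85 and 0.83, so the count of calls moved with that of all genes more than with the medians. Without any 1 of the *AGO1/2/3* knockout replicates 7 to 9 were called, and without *AGO1/2* knockout replicate 2 there were 10. Of all genes, 1113 to 1303 rose in the former fits and 1253 of 23542 in the latter. The *AGO2* knockout libraries are also those of the other quantification mode, and neither can be separated from the genotype here.

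In *AGO1/2/3* knockout cells 7 of the 44 genes rose over wild-type cells (*GINS1*, *MCM10*, *CDC6*, *POLD3*, *FEN1*, *RPA2* and *E2F1*) and 0 fell, by edgeR's test, where 20.3% of all genes tested rose and 19.8% fell. The median log2 fold change of the 44 was 0.49. Without wild-type replicate 2 the median was 0.13, 15 of the 44 values were below 0, and the calls were *GINS1* and *E2F1*, beside 17.7% of all genes higher and 19.0% lower. Without any 1 of the 3 *AGO1/2/3* knockout replicates 3 were called, beside 3624 to 3935 risen genes among 23457 to 23520 tested. With *AGO1* knockout replicate 3 left out too, the same 7 genes were called and *RPA3* was called lower (-0.62), with 18.4% of all genes higher and 20.7% lower. All 3 *AGO1/2/3* knockout libraries lay above all wild-type libraries for 25 genes, against 26.3% of all genes.

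**Figure D4:**
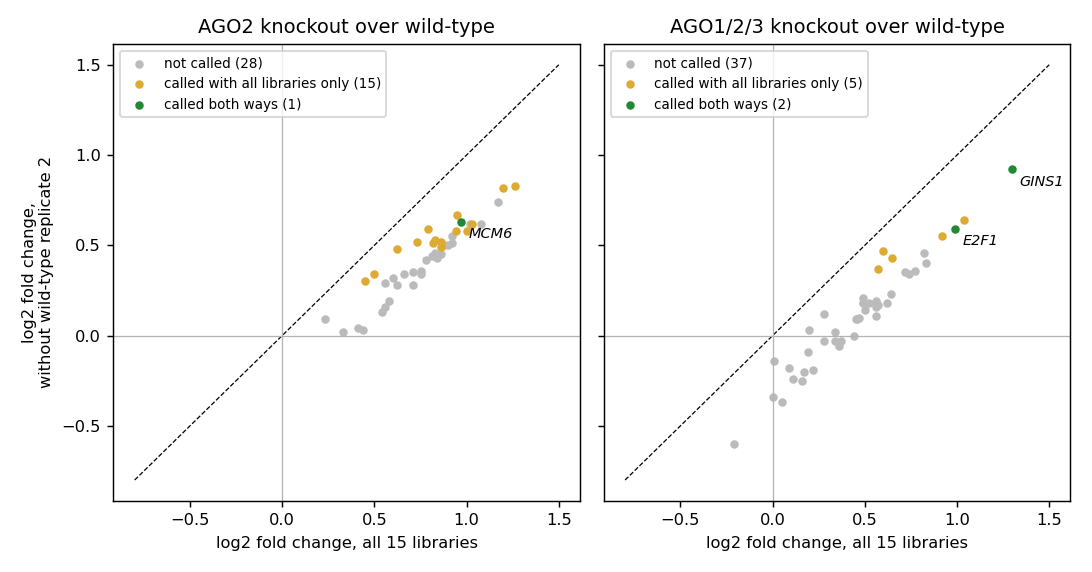
Log2 fold change over wild-type cells from all 15 libraries (horizontal axis) and without wild-type replicate 2 (vertical axis), for *AGO2* knockout (left) and *AGO1/2/3* knockout cells (right). Points are the 44 genes, coloured by whether the edgeR adjusted p was at or under 0.05. All points lie below the dashed line of equality. *MCM6* on the left and *GINS1* and *E2F1* on the right are called both ways.

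*AGO1/2/3* knockout cells were also set against *AGO1/2* knockout cells, a comparison that holds no wild-type library in either mean. By label the 2 differ in *AGO3*, but each is a single line, so loss of *AGO3* and the line cannot be told apart. *AGO2* RNA also differed between them (0.67 higher in *AGO1/2/3* knockout cells, edgeR adjusted p = 0.000235). None of the 44 genes was called by edgeR (0 of 44, 3 at an unadjusted p under 0.05, and 2 with DESeq2's Wald test), where 11.9% of all genes rose and 10.0% fell. Of all 22842 genes, 7672 had an unadjusted p under 0.05 by edgeR. DESeq2 called 2860 of 23305 genes higher and 2258 lower. The median log2 fold change was 0.27. *GINS1* (0.97, adjusted p = 0.0516) and *E2F1* (0.79, adjusted p = 0.056) were nearest to the threshold. Both were called once wild-type replicate 2 was left out of the shared fit (*GINS1* adjusted p = 0.00759, *E2F1* adjusted p = 0.000258), with fold changes of 0.96 and 0.78, and 13.2% of all genes were higher and 12.1% lower. With *AGO1* knockout replicate 3 left out too, 9 genes were called, which adds *GINS2*, *GINS3*, *MCM10*, *POLE*, *POLD3*, *FEN1* and *CHAF1A*, where 14.6% of all genes were higher and 13.4% lower.

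Neither *AGO1* nor *AGO1/2* knockout cells had a called gene among the 44 by edgeR against wild-type cells with all libraries, where 3.17% and 8.37% of all genes rose and 5.5% and 8.35% fell. At an unadjusted p under 0.05 there were 1 in *AGO1* and 1 in *AGO1/2* knockout cells, and DESeq2 called 0 in both. The median log2 fold changes were 0.28 and 0.19. Both turned below 0 without wild-type replicate 2, to -0.05 and -0.14, and without *AGO1* knockout replicate 3 as well they were 0.21 and -0.15. The direction thus turned on the low libraries in *AGO1* knockout cells and on wild-type replicate 2 in *AGO1/2* knockout cells. Without both low libraries *GINS3* was called higher in *AGO1* knockout cells (0.54), beside 2.51% of all genes higher and 5.33% lower. In *AGO1/2* knockout cells *CDC45* (-0.65), *RFC5* (-0.48) and *RPA3* (-0.49) were then called lower, beside 7.29% of all genes higher and 9.18% lower. That fit keeps *AGO1/2* knockout replicate 2, where the log2 differences of these genes from the other replicates of the line were -0.71, -0.38 and -0.37. The 4 comparisons with wild-type cells share the wild-type libraries and are not independent of each other.

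The F test of edgeR for any difference among the 5 lines called 11 of the 44 genes, where 56.4% of all genes tested were called. The 11 were *MCM6*, *GINS1*, *GINS3*, *MCM10*, *ORC6*, *CDC6*, *POLD3*, *RFC1*, *RFC3*, *RPA2* and *E2F1*. Without wild-type replicate 2 it called 21 (56.7% of all genes), and without *AGO1* knockout replicate 3 as well it called 39 (57.2% of all genes). The 5 not called then were *CDT1*, *LIG1*, *RPA1*, *RRM2* and *TYMS*. Without *AGO2* knockout replicate 2 or 3 alone it called 1 or 2, and without 1 of the *AGO1/2/3* knockout replicates 3 or 4. Leaving out *AGO1/2* knockout replicate 2 gave 5, replicate 3 of that line gave 7, and *AGO1* knockout replicate 2 or *AGO2* knockout replicate 1 gave 6. For these F tests the shares of all genes called are not given here. Leaving out both low libraries together was chosen after the values of the genes in them had been seen. Levels in single libraries follow by role, as CPM scaled by the TMM method and in the order of replicates 1, 2 and 3.

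The MCM2, MCM3, MCM4, MCM5, MCM6 and MCM7 proteins form the ring of the replicative helicase. In *AGO2* knockout cells *MCM2* (1.03, adjusted p = 0.0491) and *MCM6* (0.97, adjusted p = 0.0219) rose by edgeR's test, and the median of the 6 was 0.94. With wild-type replicate 2 left out *MCM2* had 0.62 and was not called, *MCM6* had 0.63 (edgeR adjusted p = 0.0466), and the median was 0.57. *MCM6* (chr2:135839626-135876443, minus strand) stood at 132, 55.9 and 143 CPM in wild-type, 193, 163 and 106 in *AGO1* knockout and 197, 231 and 221 in *AGO2* knockout cells. It was at 129, 110 and 117 in *AGO1/2* knockout and at 113, 124 and 119 in *AGO1/2/3* knockout cells. The *AGO2* knockout libraries were thus above all others, and the *AGO1/2* and *AGO1/2/3* knockout libraries were below both wild-type replicates 1 and 3. The call of *MCM6* in *AGO2* knockout cells was lost in 3 of 23 alternative fits. *MCM4* stood at 216, 58.2 and 242 CPM in wild-type, 319, 207 and 108 in *AGO1* knockout and 347, 418 and 402 in *AGO2* knockout cells. It was at 286, 178 and 180 in *AGO1/2* knockout and at 218, 239 and 242 in *AGO1/2/3* knockout cells. The difference of 1.17 ± 0.41 (SE) in *AGO2* knockout cells was above that of *MCM6*, but with an adjusted p of 0.0586 by edgeR it was not called. In *AGO1/2/3* knockout cells none of the 6 was called, with a median of 0.44 that became 0.04 without wild-type replicate 2.

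Of the 10 partners and loading factors of the helicase, 6 were called in *AGO2* knockout and 3 in *AGO1/2/3* knockout cells, and without wild-type replicate 2 these counts were 0 and 1. *GINS1* (ENSG00000101003, chr20:25391008-25452700, plus strand) encodes a subunit of the GINS complex, which holds *CDC45* to the MCM ring. It stood at 37.1, 13.8 and 44.3 CPM in wild-type, 51.4, 32.8 and 21.6 in *AGO1* knockout and 53.3, 61.2 and 60.9 in *AGO2* knockout cells. It was at 51.6, 33.5 and 34.4 in *AGO1/2* knockout and at 73.1, 80.4 and 81.5 in *AGO1/2/3* knockout cells. The *AGO1/2/3* knockout libraries were above all other 12 libraries. The log2 fold change over wild-type cells was 1.30 ± 0.34 (SE, edgeR adjusted p = 0.00648), it was 0.92 without wild-type replicate 2 (adjusted p = 0.0142), and the call was kept in all 24 alternative fits. The 13 other genes with at least 1 CPM within 2 Mb of *GINS1* had a median of -0.43 in the same comparison. *GINS1* overlaps *NINL* on the other strand by 259 exonic bases, *NINL* stood at 23.7% of its level, and the counting is not stated to use strand. The other GINS subunits had smaller values in *AGO1/2/3* knockout cells (*GINS2* 0.83, *GINS3* 0.49 and *GINS4* 0.50), none of them called, while in *AGO2* knockout cells *GINS2* (1.26), *GINS3* (0.83) and *GINS4* (0.94) were called and *GINS1* (0.88, edgeR adjusted p = 0.0786) was not. The 3 called values became 0.83, 0.53 and 0.58 without wild-type replicate 2, and none was called.

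*GINS3* was at 15.6, 7.36 and 15.1 CPM in wild-type, 23.2, 21.0 and 12.1 in *AGO1* knockout and 19.9, 25.6 and 22.1 in *AGO2* knockout cells. It was at 14.7, 11.7 and 13.2 in *AGO1/2* knockout and at 17.2, 19.7 and 16.5 in *AGO1/2/3* knockout cells. *MCM10*, which activates the assembled helicase, was called in both *AGO2* knockout (1.20 ± 0.33 SE) and *AGO1/2/3* knockout cells (0.92 ± 0.33 SE). Both calls were lost without wild-type replicate 2, at 0.82 and 0.55. Its levels were 52.3, 19.2 and 55.4 CPM in wild-type, 92.3, 67.5 and 43.7 in *AGO1* knockout, 75.7, 117 and 98.9 in *AGO2* knockout, 67.9, 44 and 50.3 in *AGO1/2* knockout and 75.4, 84.6 and 80.6 in *AGO1/2/3* knockout cells. The *AGO2* and *AGO1/2/3* knockout libraries were above all wild-type libraries, and *AGO1* knockout replicate 1 was as high. *CDC45* was not called in any comparison with all libraries (0.54 in *AGO2* knockout cells and 0.05 in *AGO1/2/3* knockout cells).

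Among the factors that license origins, *CDC6* and *ORC6* differed least between wild-type replicate 2 and the other wild-type libraries. *CDC6* was at 89.1, 67.0 and 81.4 CPM in wild-type, 120, 98.4 and 67.7 in *AGO1* knockout and 104, 134 and 126 in *AGO2* knockout cells. It was at 115, 84.2 and 92.6 in *AGO1/2* knockout and at 105, 125 and 129 in *AGO1/2/3* knockout cells. It rose by 0.62 in *AGO2* knockout cells (adjusted p = 0.0316) and by 0.60 in *AGO1/2/3* knockout cells (adjusted p = 0.0165) by edgeR, and without wild-type replicate 2 the values were 0.48 and 0.47 and neither was called. *ORC6*, the smallest subunit of the origin recognition complex, was at 39.1, 29.7 and 40.2 CPM in wild-type, 42.0, 37.0 and 30.1 in *AGO1* knockout and 44.9, 56.2 and 48.3 in *AGO2* knockout cells. It was at 41.5, 37.1 and 35.7 in *AGO1/2* knockout and at 44.7, 46.4 and 41.1 in *AGO1/2/3* knockout cells, and it was called in *AGO2* knockout cells (0.45) but not without wild-type replicate 2 (0.30). *CDT1*, which brings the MCM ring to the origin, was at 74.6, 20.0 and 61.1 CPM in wild-type, 73.3, 65.7 and 50.3 in *AGO1* knockout and 74.1, 69.2 and 68.4 in *AGO2* knockout cells. It was at 61.7, 41.4 and 57.3 in *AGO1/2* knockout and at 64.3, 70.2 and 65.2 in *AGO1/2/3* knockout cells. The wild-type libraries of *CDT1* spanned the range of the other 12 libraries, and it was not called in any comparison with wild-type cells. *ORC1* had a log2 fold change of 1.08 in *AGO2* knockout cells that was not called (edgeR adjusted p = 0.0716).

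**Figure D5:**
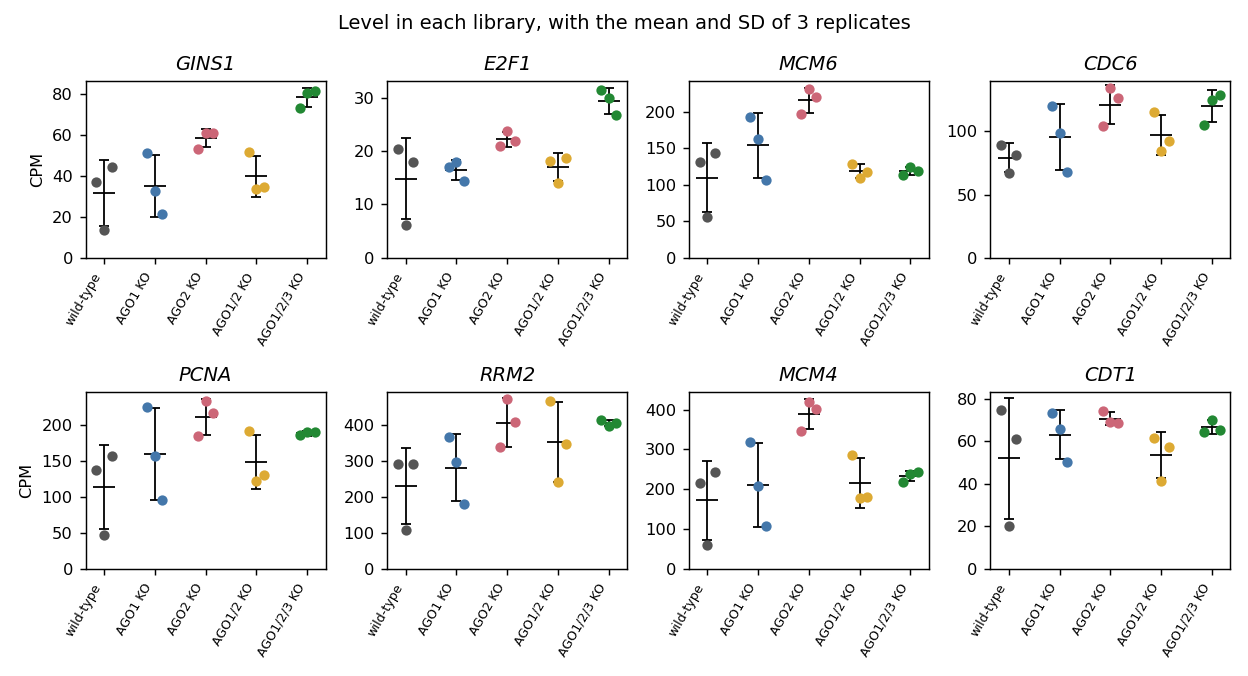
CPM (linear axes from 0) of 8 genes in the 3 libraries of each line, with the mean as a bar and the SD of 3 replicates as whiskers. *GINS1* and *E2F1* are highest in *AGO1/2/3* knockout cells, *MCM6* in *AGO2* knockout cells, and wild-type replicate 2 is the lowest wild-type point in each panel.

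The 9 genes of the polymerases and the primase had medians of 0.73 in *AGO2* knockout and 0.46 in *AGO1/2/3* knockout cells (0.42 and 0.09 without wild-type replicate 2). *POLD3*, an accessory subunit of polymerase delta, was the only called gene among them, in *AGO2* knockout (0.73 ± 0.19 SE) and in *AGO1/2/3* knockout cells (0.65 ± 0.19 SE). Its values were 0.52 and 0.43 without wild-type replicate 2, and neither was called. It was at 22.3, 13.9 and 22.2 CPM in wild-type, 29.1, 24.3 and 18.4 in *AGO1* knockout and 29.7, 35.7 and 31.9 in *AGO2* knockout cells. It was at 26.7, 19.3 and 23.3 in *AGO1/2* knockout and at 33.2, 30.2 and 28.2 in *AGO1/2/3* knockout cells. All *AGO2* and *AGO1/2/3* knockout libraries were above all wild-type libraries. The catalytic subunits of the 3 polymerases, *POLA1* (alpha), *POLD1* (delta) and *POLE* (epsilon), had values of 0.66, 0.41 and 0.33 in *AGO2* knockout and 0.34, 0.17 and 0.49 in *AGO1/2/3* knockout cells, none of them called. *POLA2*, *POLE2*, *POLD2* and the primase subunits *PRIM1* and *PRIM2* lay between 0.23 and 0.92 in *AGO2* knockout cells, also without a call.

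Of the clamp, the clamp loader and the enzymes that finish Okazaki fragments, *RFC1* (0.50), *RFC2* (0.82) and *RFC3* (0.95) of the loader rose in *AGO2* knockout cells and *FEN1*, the flap endonuclease, rose in *AGO1/2/3* knockout cells (1.04 ± 0.35 SE). None of these calls was kept without wild-type replicate 2, with 0.34, 0.51 and 0.67 for the loader genes and 0.64 for *FEN1*. *RFC3* was at 41.5, 20.7 and 39.9 CPM in wild-type, 48.7, 48.7 and 28.1 in *AGO1* knockout and 56.5, 74.8 and 66.6 in *AGO2* knockout cells. It was at 39.9, 27.1 and 33.5 in *AGO1/2* knockout and at 35.6, 40.2 and 40.9 in *AGO1/2/3* knockout cells. The *AGO2* knockout libraries were above all others, and no other line lay above all wild-type libraries. *RFC1*, the large subunit, was at 134, 94.8 and 128 CPM in wild-type, 144, 135 and 102 in *AGO1* knockout and 162, 173 and 170 in *AGO2* knockout cells. It was at 126, 105 and 131 in *AGO1/2* knockout and at 134, 136 and 139 in *AGO1/2/3* knockout cells. *RFC4* (0.56) and *RFC5* (0.62) had values in *AGO2* knockout cells that were not called. *PCNA* had the highest level per length of the 44 genes, at 117 CPM per kb of exon averaged over the lines, against 2.04 for *POLA2* at the low end. The length counts all annotated exons of a gene together (1403 bases for *PCNA* and 12006 for *POLA2*), so this order depends on the annotation too. *PCNA* was at 137, 46.2 and 156 CPM in wild-type, 224, 157 and 95.1 in *AGO1* knockout and 184, 233 and 216 in *AGO2* knockout cells. It was at 191, 122 and 130 in *AGO1/2* knockout and at 185, 190 and 190 in *AGO1/2/3* knockout cells. Although every library of *AGO2* and *AGO1/2/3* knockout cells lay above all wild-type libraries, *PCNA* was not called in *AGO2* knockout (0.90, edgeR adjusted p = 0.0819) or *AGO1/2/3* knockout cells (0.74, edgeR adjusted p = 0.109). *LIG1*, the ligase that joins the fragments, had values of 0.56 and 0.37.

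Of the RPA subunits *RPA2* was called. It was at 41.8, 29.3 and 46 CPM in wild-type, 59.2, 47.5 and 31.2 in *AGO1* knockout and 61.6, 74.1 and 66.6 in *AGO2* knockout cells. It was at 63.8, 47.5 and 52.6 in *AGO1/2* knockout and at 57.8, 59.4 and 56.8 in *AGO1/2/3* knockout cells, and it rose in *AGO2* knockout (0.79) and *AGO1/2/3* knockout cells (0.57) by edgeR. When wild-type replicate 2 was left out, the values were 0.59 and 0.37 and neither was called. Every *AGO1/2* knockout library was also above every wild-type library, which held for no other of the 44 genes, at 0.48 and without a call, where 15.5% of all genes tested did so. *RPA3* had values of 0.75 in *AGO2* knockout and -0.21 in *AGO1/2/3* knockout cells, the only value below 0 among the 44 in the latter. *RPA1* had 0.60 and 0.49. None of these *RPA1* and *RPA3* values was called.

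None of the 4 genes of nucleotide supply was called in any comparison with wild-type cells and all libraries. *RRM2*, the subunit of ribonucleotide reductase that is limiting in S phase, was at 291, 108 and 291 CPM in wild-type, 367, 297 and 181 in *AGO1* knockout and 340, 475 and 410 in *AGO2* knockout cells. It was at 467, 243 and 348 in *AGO1/2* knockout and at 416, 399 and 406 in *AGO1/2/3* knockout cells. The *AGO2* and *AGO1/2/3* knockout libraries were above all wild-type libraries, with 0.83 (edgeR adjusted p = 0.0844) and 0.82 (edgeR adjusted p = 0.0562), and both values were 0.46 without wild-type replicate 2. *RRM1*, *TYMS* (thymidylate synthase) and *TK1* had values of 0.75, 0.84 and 0.71 in *AGO2* knockout and 0.22, 0.77 and 0.62 in *AGO1/2/3* knockout cells. *CHAF1A* and *CHAF1B*, which deposit histones behind the fork, had the same value of 0.86 in *AGO2* knockout cells and were both called. They had 0.49 and 0.52 without wild-type replicate 2 and lost their calls. In *AGO1/2/3* knockout cells, with all libraries, they had 0.56 and 0.52 and were not called.

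Of the 2 E2F genes, *E2F1* (ENSG00000101412, chr20:33675477-33686385, minus strand) rose in *AGO1/2/3* knockout cells and *E2F2* in *AGO2* knockout cells. *E2F1* was at 20.4, 6.22 and 18.0 CPM in wild-type, 17.1, 17.9 and 14.4 in *AGO1* knockout and 20.9, 23.7 and 21.9 in *AGO2* knockout cells. It was at 18.2, 14 and 18.8 in *AGO1/2* knockout and at 31.5, 30 and 26.7 in *AGO1/2/3* knockout cells. The *AGO1/2/3* knockout libraries were above all other 12 libraries, as they were for *GINS1*. The log2 fold change over wild-type cells was 0.99 ± 0.28 (SE, edgeR adjusted p = 0.0109) and 0.59 without wild-type replicate 2 (adjusted p = 0.00309), and 1 of 24 alternative fits lost the call. *E2F2* had 1.0 ± 0.33 (SE, edgeR adjusted p = 0.0452) in *AGO2* knockout and 0.64 (not called) in *AGO1/2/3* knockout cells. The first value was 0.58 without wild-type replicate 2 and was not called.

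The 19 genes with an E2F site in the promoter and the 19 without were set side by side. Their median differences in wild-type replicate 2 were -1.49 and -1.43, and their median log2 fold changes in *AGO2* knockout cells were 0.84 and 0.75. In *AGO1/2/3* knockout cells the medians were 0.49 and 0.28. Without wild-type replicate 2 they were 0.50 and 0.34 in *AGO2* knockout cells and 0.18 and 0.09 in *AGO1/2/3* knockout cells. These medians are given as a description.

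Other genes of the same pathways were examined from lists drawn up beside the 44. Among all genes tested, 8.55% rose and 10.8% fell in *AGO2* knockout cells, and the shares for the *AGO1/2/3* knockout were 20.3% and 19.8%. Of 30 further origin and fork factors, 9 rose and 1 fell in *AGO2* knockout cells, and 3 rose and 2 fell in *AGO1/2/3* knockout cells. Those called in *AGO1/2/3* knockout cells were *CLSPN* (1.40), a mediator of the replication checkpoint, *TOPBP1* (0.80), *RNASEH2A* (0.69), *POLD4* (-1.31), a small subunit of polymerase delta, and the topoisomerase *TOP1* (-0.51). Without wild-type replicate 2, *CLSPN* (1.05) and *POLD4* (-1.07) kept their calls and the other 3 did not, and in all 1 was called higher and 6 lower. The median of the 30 was 0.58 in *AGO2* knockout and 0.20 in *AGO1/2/3* knockout cells, and 0.34 and -0.01 without that library, when 0 were called in either direction in *AGO2* knockout cells.

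Of 25 further genes of nucleotide supply, 7 rose and 1 fell in *AGO2* knockout cells, and 6 rose and 7 fell in *AGO1/2/3* knockout cells, with medians of 0.38 and -0.02. The largest difference in *AGO1/2/3* knockout cells was that of *MTHFD2*, a mitochondrial enzyme of folate metabolism that feeds purine and thymidylate synthesis, at -1.81 (edgeR adjusted p = 0.000352) and -1.58 without wild-type replicate 2. The other 6 that fell there were *IMPDH2* (-1.43), *GART* (-1.17), *SHMT2* (-0.94), *ATIC* (-0.72), *DHODH* (-0.71) and *RRM2B* (-0.43), and all 7 kept their calls without wild-type replicate 2. The 6 that rose were *IMPDH1* (0.92), *SAMHD1* (0.76), *SHMT1* (0.69), *CMPK1* (0.66), *CTPS1* (0.53) and *CTPS2* (0.39), of which *SHMT1* and *CTPS1* lost their calls without that library. These 12 are named because their values were called and not by the rule for named genes. Without wild-type replicate 2 the list had 4 risen and 10 fallen genes in the *AGO1/2/3* knockout. For the *AGO2* knockout it then had 2 risen and 0 fallen genes, and its median went from 0.38 to 0.16.

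Of 10 further genes of chromatin copied at the fork, 4 rose in *AGO2* knockout and 5 in *AGO1/2/3* knockout cells, and 0 fell in either. Those in *AGO1/2/3* knockout cells were *UHRF1* (0.93), *ASF1A* (0.89), *HAT1* (0.71), *DNMT1* (0.68) and *RBBP4* (0.42). Only *ASF1A*, a histone chaperone, kept its call without wild-type replicate 2, with the same value of 0.89, and in *AGO2* knockout cells 1 of the 4 calls was left. Of 13 further E2F and pocket protein genes, 3 rose and 1 fell in *AGO2* knockout and 6 rose and 2 fell in *AGO1/2/3* knockout cells. *CDC25A*, a phosphatase that drives entry into S phase, had the largest difference in *AGO1/2/3* knockout cells (1.67 ± 0.34 SE, edgeR adjusted p = 0.00102, and 1.36 without wild-type replicate 2). Named because they were called and not by the rule for named genes, *E2F7*, a repressing E2F (1.58), *RB1*, the retinoblastoma protein that restrains E2F (1.37), *MYBL2* (1.15), *RBL1* (1.07) and *E2F3* (0.39) rose and *E2F5* (-1.19) and *E2F4* (-0.65) fell. Of these 8 genes *E2F3* lost its call without wild-type replicate 2. Of the 13 genes, 5 rose and 2 fell in the *AGO1/2/3* knockout when that library was left out, and 1 rose and 0 fell in the *AGO2* knockout.

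*MCM4* and *GINS4* lie on chromosome 8, where 356 genes of the long arm from 46 Mb on showed log2 fold changes with a median of -0.51 in *AGO1/2* knockout and -0.45 in *AGO1/2/3* knockout cells, against 0.02 and 0.04 on all other chromosomes. The long arm was at 0.00 in *AGO1* knockout and 0.02 in *AGO2* knockout cells. *MCM4* is on that arm and had values of 0.32 in *AGO1/2* knockout and 0.44 in *AGO1/2/3* knockout cells, and the 4 other genes with at least 1 CPM within 2 Mb of it had medians of -0.13 and 0.03. *GINS4* is on the short arm, which had medians of 0.07 and 0.13. The part of this regional difference in the level of *MCM4* was not tested.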

How the data were processed

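RNA of 15 HCT116 samples was measured by RNAseq after ribosomal RNA depletion, with stranded total RNA libraries and paired-end reads. The authors aligned reads to hg38 with STAR and quantified them with Salmon (versions 2.5.3a and 0.11.0 in the submitters' processing notes, which also name DESeq2; the methods give other versions), and deposited estimated counts per gene, not scaled for depth. No strand setting of the counting is given in the sources used here. Estimated counts were rounded, filtered with filterByExpr, scaled by the TMM method and fitted with edgeR 4.0.16 in R 4.3.3, with a mean for each of 5 lines. P-values of edgeR's quasi-likelihood test received Benjamini-Hochberg adjustment over the 22842 genes left, and an adjusted p at or under 0.05 was called. DESeq2 1.42.0 was an alternative. Total counts per sample of 27709971 to 45271146 set the counting precision.

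Replicates are called biological in the methods, but nothing names separate cultures, so p-values measure the spread between these samples. No pair of the 15 files held identical values. The edgeR fit (22305 genes) was run on simulated data with 200 genes changed in the *AGO1/2/3* knockout against wild-type cells. It called 172 in the right direction with 13 false calls. Its performance on genes that are low together in 1 library, as the 44 are in wild-type replicate 2, was not tested. Log2 CPM of single libraries used a prior count of 2. Positions come from GENCODE v44, and windows printed from RefSeq promoters matched hg38 in 23 of 23 cases. Python 3.11.15 with pandas 2.3.3 was used for counts and medians. The alternatives were DESeq2, other scalings and filters, only the 6 samples compared, the replicate number as a block, each sample left out, and, chosen after seeing the data, leaving out the *AGO2* knockout line or both low libraries. The 44 genes and the pathway lists were chosen with earlier results of these data known. All 44 genes are named. Values in every library are given for up to 14 genes called among the 5 lines and for *PCNA*, *RRM2*, *CDT1*, *E2F1* and *MCM4*, values for other genes called at a log2 fold change of at least 0.5, and of the further pathway lists the called gene with the largest difference in *AGO1/2/3* knockout cells, or all called genes where there were at most 5.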

Additional observations from a re-analysis of the deposited data

How the results depend on the processing

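No called value of a gene changed direction under any alternative. Where 16 genes were called in *AGO2* knockout cells, DESeq2's Wald test called 26 of the 44, no filter on low counts 38, only the 6 samples compared 4, and total counts in place of TMM 6. Of all genes tested, 2548 of 22488, 2588 of 42905, 528 of 21757 and 733 of 22842 rose, in the same order. With total counts the median of all genes in this comparison went from -0.02 to -0.14 and that of the 44 to 0.70, which is 0.84 above all genes. For the *AGO1/2/3* knockout the median of all genes went from -0.01 to -0.15, and the 44 stood 0.50 above it. In *AGO1/2/3* knockout cells the 7 calls became 13 with no filter, 4 with only the 6 samples compared and 3 with total counts. Of all genes, 4312 of 42905, 3713 of 21218 and 3459 of 22842 rose there, in the same order. The median of 0.49 was 0.42 with at least 10 counts in every sample, 0.44 with only the 6 samples and 0.35 with total counts. Against *AGO1/2* knockout cells the 0 calls became 2 with DESeq2 or no filter and 8 with only the 6 samples. Of all genes, 2860 of 23305, 2388 of 42905 and 3124 of 20868 rose there, in the same order. The median of 0.27 was 0.23 with at least 10 counts and 0.21 with total counts. The 11 genes that differed among the 5 lines became 39 with no filter and 4 with total counts, and the shares of all genes in those fits are not given here. The cause was not tested.

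Deviations of same-numbered samples from the means of their lines correlated between -0.394 and 0.486, so the replicate numbers were not taken to pair the samples, and not every sample correlated best with its own number. With the replicate block, 16 genes were called in *AGO2* knockout cells, 8 in *AGO1/2/3* knockout cells (median 0.52), 1 against *AGO1/2* knockout cells and 10 among the 5 lines. Of all 22842 genes, 1604 rose in *AGO2* and 4585 in *AGO1/2/3* knockout cells and 2586 against *AGO1/2* knockout cells.

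Leaving out both low libraries, chosen after seeing the data, gave 1 gene higher in *AGO1*, 3 lower in *AGO1/2* and 1 lower in *AGO1/2/3* knockout cells, medians of 0.21 (*AGO1*), 0.48 (*AGO2*), -0.15 (*AGO1/2*) and 0.12 (*AGO1/2/3*), 9 calls against *AGO1/2* knockout cells and 39 among the 5 lines. Leaving out each sample in turn gave 0 to 27 calls in *AGO2*, 2 to 10 in *AGO1/2/3*, 0 to 1 in *AGO1* and 0 to 1 in *AGO1/2* knockout cells, 0 to 2 against *AGO1/2* knockout cells and 1 to 21 among the 5 lines. The medians ran from 0.47 to 0.99, 0.13 to 0.66, -0.05 to 0.48, -0.14 to 0.40 and 0.13 to 0.43 in the same order. In those fits 389 to 2612 of all genes rose in *AGO2* and 3624 to 4707 in *AGO1/2/3* knockout cells. The lowest level of any of the 44 stood at 6.22 CPM in wild-type replicate 2 (*E2F1*). The 3 replicates per line and the single line per genotype limit the comparisons.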
